A study of Homo sapiens with 14 samples.

Results

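The inhibitor of DNA binding genes ID1, ID2, ID3 and ID4, the muscle segment homeobox genes MSX1 and MSX2, and the distal-less homeobox genes DLX1, DLX2, DLX5 and DLX6 were followed in NT2 cells given either retinoic acid (RA) or the growth factor BMP2, a bone morphogenetic protein. These 10 genes were chosen by symbol from the 25952 genes of the deposited count table, with earlier results of these data known. All 10 were among the 19142 genes that passed the filter on low counts and were tested. MSX1, DLX1, DLX2, DLX5 and DLX6 were under 1 CPM (counts scaled to the library total) in both untreated libraries. DLX1 and DLX2 had too few counts there to pass the filter on the untreated libraries alone, so they passed through treated ones and had to be above the count minimum in some of these.

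BMP ligands act through receptor kinases that phosphorylate SMAD1, SMAD5 and SMAD9, which join SMAD4 and enter the nucleus. The ID genes are among the most direct targets of this pathway in many cell types. ID proteins keep the helix-loop-helix part of basic helix-loop-helix (bHLH) factors but lack the basic region that contacts DNA, and they hold E proteins away from their sites. MSX1 and MSX2 encode homeodomain repressors that BMP signals switch on in the neural crest, the limb and the face. DLX genes encode homeodomain activators, lie in the genome as facing pairs (DLX1 with DLX2, DLX5 with DLX6), and are known from forebrain interneurons, the pharyngeal arches and bone.

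NT2 is a line of human embryonal carcinoma cells, the malignant counterpart of pluripotent embryonic cells. There were 14 libraries in 7 groups of 2: untreated cells at day 0, and cells after 5, 10 and 21 days of RA at a final 10 µM (dissolved in DMSO) or of BMP2. All groups were the same line in the same serum-containing medium. Per the labels, RA was given to obtain neurons and BMP2 to obtain muscle cells, and 30 ng/ml of BMP2 was tried before 40 ng/ml was adopted, without the dose of each library. Solvent-only cultures, and untreated ones kept for longer, were not analysed here. A difference from day 0 therefore holds the agent, its solvent and the days in culture together. Nothing in the labels tells whether both libraries of a group were grown separately, so the p-values reflect the spread between these samples alone, which may be technical.

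Total counts ran from 45773278 to 75754396 per library. Values are CPM scaled by TMM factors, and tests are edgeR's quasi-likelihood test over all 14 libraries with Benjamini-Hochberg adjustment. A gene was called at an adjusted p under 0.05. Markers of embryonal carcinoma (POU5F1, NANOG, SOX2, LIN28A, DNMT3B and TDGF1) summed to 5810 and 6540 CPM in untreated cells. In the 4 libraries of day 21 they summed to between 20.1 and 32.5 CPM. All 6 fell in both day 21 groups, where 21.1% (RA) and 22.1% (BMP2) of all genes fell. Both BMP2 day 10 libraries stood apart from each other. Over all tested genes they correlated at 0.918, against 0.964 to 0.99 for the replicates of the other 6 groups, and replicate 1 was closest to BMP2 day 5 replicate 2 (0.981) and replicate 2 to BMP2 day 21 replicate 2 (0.966). In bulk RNA, fewer cells that express a gene and less RNA per cell cannot be told apart.

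In the plot of levels by library, the ID genes were present in every library, whereas MSX1 and the DLX genes were at traces in untreated cells. The 4 ID genes had between 38.7 and 104 CPM in untreated cells. MSX1 stood at 0.284 and 0.348 CPM there, and MSX2 at 9.25 and 16.4 CPM.

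**Figure D1:**
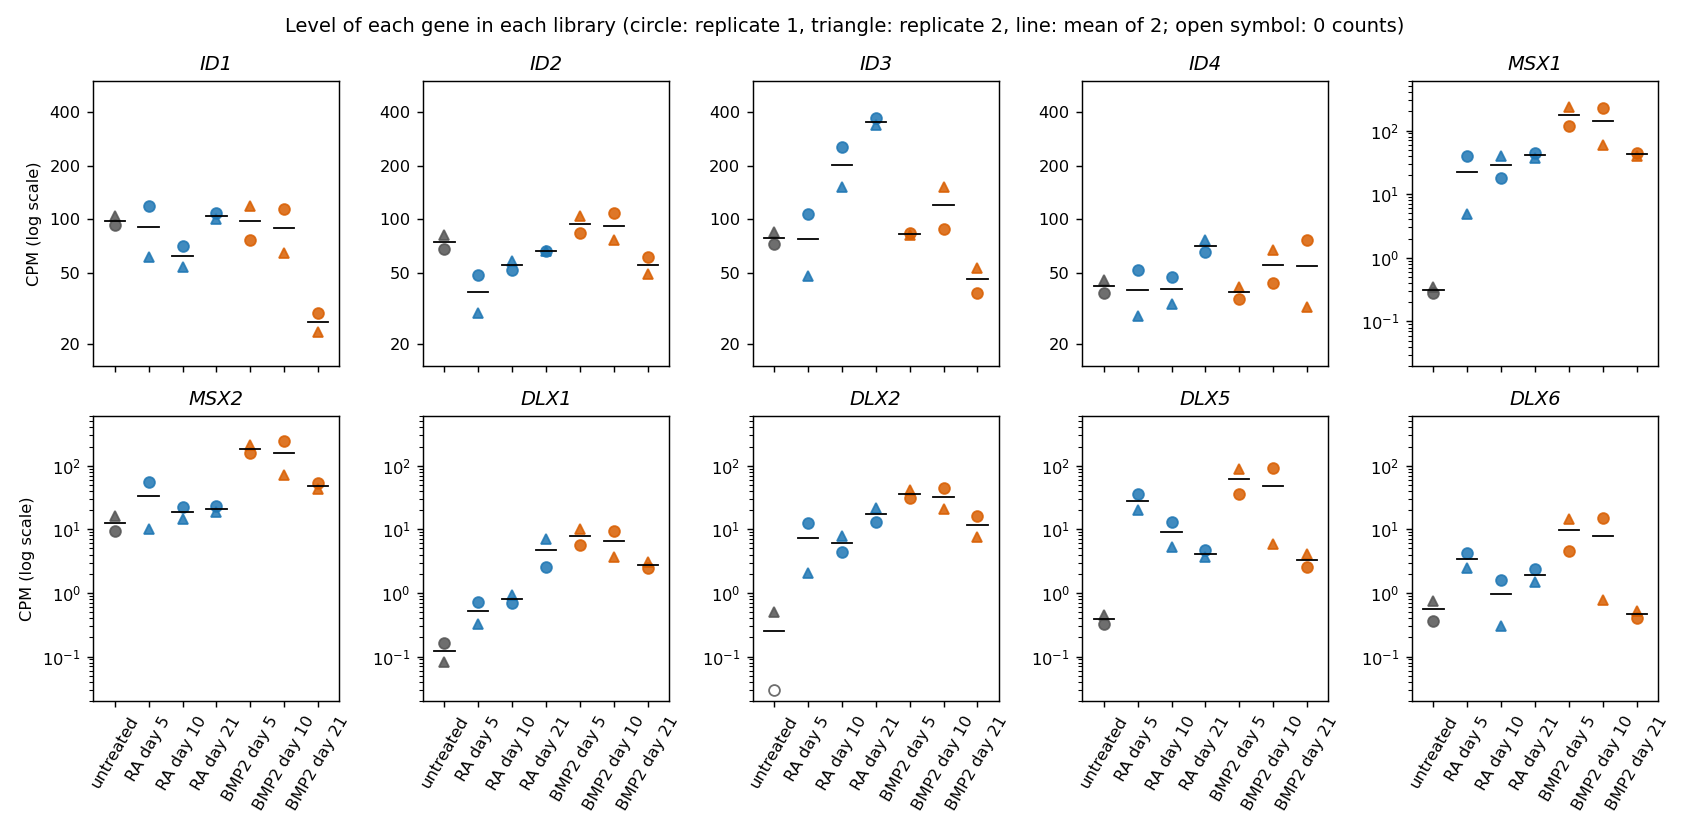
Level of each of the 10 genes in each library, in CPM on a log axis, by group; circles are replicate 1, triangles replicate 2, lines the mean of 2, and the open symbol is a library with 0 counts, drawn at the foot of the panel. The axis of the ID genes spans a narrower range than that of the others: ID1 was lowest at BMP2 day 21 (29.7 and 23.3 CPM), ID3 highest at RA day 21 (370 and 338 CPM), and MSX1 highest at BMP2 day 5 and in BMP2 day 10 replicate 1.

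Against untreated cells, both MSX genes and all 4 DLX genes were higher with BMP2 on days 5 and 10, that is 6 of the 10 genes each time, and 0 were lower. Among all genes tested, 15.9% were called higher and 13.4% lower at BMP2 day 5, and 19.8% higher and 16.4% lower at BMP2 day 10. At BMP2 day 21, 4 genes were higher (MSX1, DLX1, DLX2 and DLX5) and 1 was lower (ID1), with 25% and 22.1% of all genes. With RA, 3 genes were higher (MSX1, DLX2 and DLX5) and 1 was lower (ID2) at day 5, where 5.59% and 2.72% of all genes were called. The RA libraries of days 10 and 21 had 5 higher (ID3, MSX1, DLX1, DLX2 and DLX5) and 0 lower, against 12.9% higher and 11.1% lower of all genes at day 10, and 23.4% and 21.1% at day 21. These 6 comparisons share the 2 untreated libraries. The median log2 fold change of the 10 genes was 3.97 at BMP2 day 5 and 1.72 at RA day 5, where the median of all genes tested was 0.

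The split of calls over all genes moved with the method. At RA day 5, 67.3% of called genes were higher, against 56.1% by DESeq2 and 52.6% by limma on log2(RPKM + 1). At RA day 10 it was 53.9%, against 67.5% by limma on log2(RPKM + 0.1). At BMP2 days 5 and 10 it was 54.3% and 54.7%, against 43.3% and 42.9% by limma on log2(RPKM + 1). These methods differ from the edgeR fit in test, filter or offset as well as in scaling. With only the scaling changed, to RLE factors, the 4 shares were 62.5%, 52.0%, 52.1% and 54.1%. None of the 45 called fold changes of the 10 genes reversed under an alternative that was run. Fewer of the 10 were called on log2(RPKM + 1): 0 at RA day 5, 2 at RA day 10, 4 at RA day 21, and 5, 5 and 3 at BMP2 days 5, 10 and 21. Over all genes it called 1122, 3247 and 6132 at RA days 5, 10 and 21, in place of 1591, 4593 and 8529. At BMP2 days 5, 10 and 21 it called 3872, 4740 and 6291, in place of 5597, 6947 and 9012. The cause was not tested. With only the BMP2 day 10 and untreated libraries fitted, 2 of the 10 were called in place of 6, and over all genes 1019 in place of 6947.

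**Figure D2:**
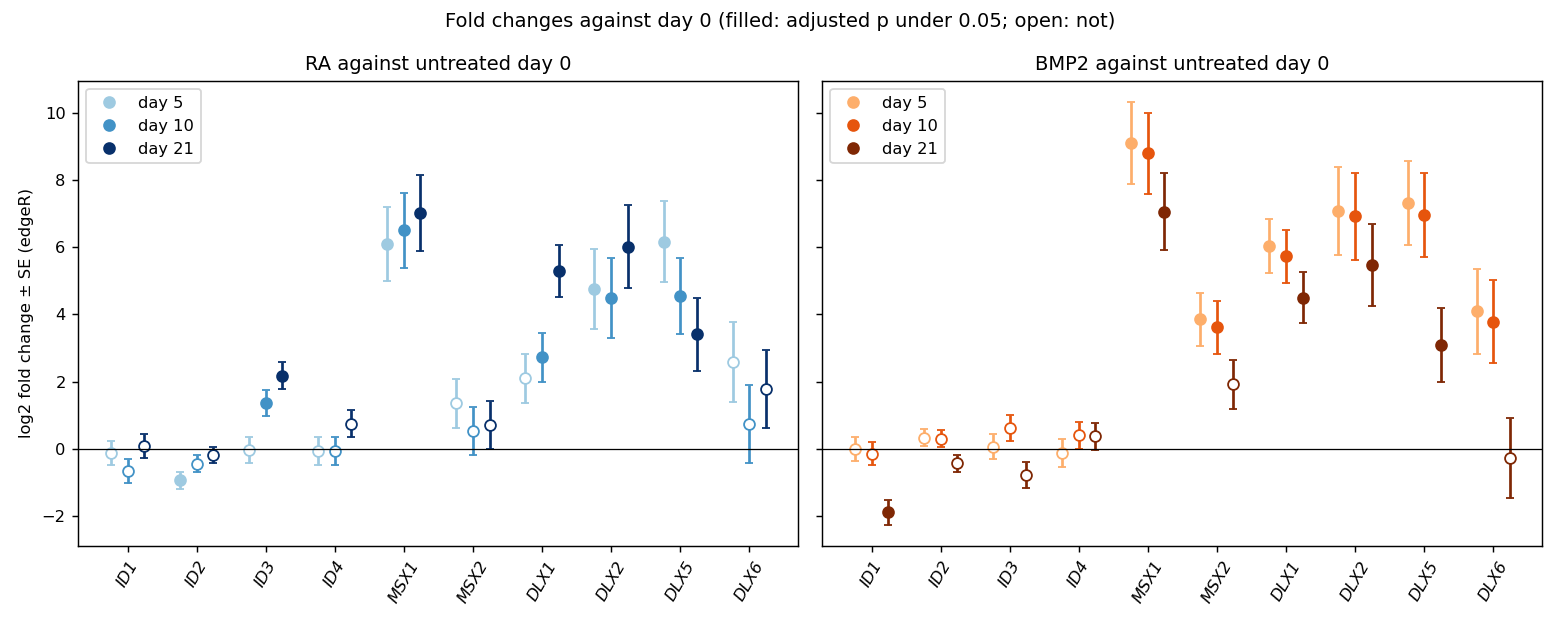
Log2 fold change ± SE (edgeR) of the 10 genes against untreated cells, left for RA and right for BMP2, with 3 days side by side; filled points passed an adjusted p under 0.05 and open points did not. The ID genes lie between -1.89 and 2.17, while MSX1 lies at 6.09 or above in all 6 comparisons.

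Within the ID family, ID3 was called higher late in RA treatment and ID1 lower late in BMP2 treatment. The 250 bases before the start of each, in RefSeq on GRCh38.p14, are shown because these 2 genes carried the ID calls of day 21: ID1 at chr20:31605039-31605288 on the plus strand and ID3 at chr1:23559502-23559751 on the minus strand. Each is written 5′ to 3′ on the gene's strand. Capitals mark GGCGCC or GGAGCC (reverse complement GGCTCC), GC-rich words that SMAD proteins are known to bind.
ID1: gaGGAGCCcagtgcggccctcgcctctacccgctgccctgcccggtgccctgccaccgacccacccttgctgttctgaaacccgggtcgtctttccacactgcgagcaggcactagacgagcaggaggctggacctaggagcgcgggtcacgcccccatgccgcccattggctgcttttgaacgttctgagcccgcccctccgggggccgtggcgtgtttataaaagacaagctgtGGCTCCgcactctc
ID3: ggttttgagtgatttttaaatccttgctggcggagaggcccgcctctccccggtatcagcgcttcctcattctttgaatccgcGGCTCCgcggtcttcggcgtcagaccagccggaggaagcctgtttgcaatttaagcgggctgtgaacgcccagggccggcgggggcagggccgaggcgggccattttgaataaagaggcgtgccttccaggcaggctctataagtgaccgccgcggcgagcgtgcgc

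ID1, a classical BMP target that restrains differentiation, had 92.7 and 104 CPM in untreated cells. It had 119 and 61.7 CPM at RA day 5, then 70.4 and 54.0 (day 10) and 108 and 101 (day 21). ID1 levels with BMP2 were 76.9 and 119 CPM at day 5, then 114 and 65.0 (day 10) and 29.7 and 23.3 (day 21). Only the BMP2 day 21 libraries lay below all 12 others. ID1 was 3.71-fold lower there than in untreated cells (log2 fold change -1.89 ± 0.36 SE, adjusted p = 0.0021, edgeR), and this call held in all 14 fits that left out 1 library, with adjusted p up to 0.025. At BMP2 days 5 and 10 its log2 fold change was -0.01 ± 0.35 and -0.14 ± 0.35, and neither passed the test.

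ID3 had 72.7 and 85.1 CPM in untreated cells. ID3 levels with RA were 107 and 48.3 CPM at day 5, then 254 and 152 (day 10) and 370 and 338 (day 21), above every other library. ID3 levels with BMP2 were 83.7 and 81.6 CPM at day 5, then 87.9 and 153 (day 10) and 38.6 and 53.6 (day 21). ID3 rose 4.49-fold by RA day 21 (2.17 ± 0.40 SE, adjusted p = 0.0019), a call that held with each library left out (adjusted p up to 0.021). The 2.57-fold rise at RA day 10 (adjusted p = 0.03) was lost without untreated replicate 1 (adjusted p = 0.15), untreated replicate 2 (0.12) or RA day 10 replicate 1 (0.19). The ratio of ID3 to ID1 was 0.784 and 0.818 in untreated cells and 3.35 to 3.42 at RA day 21.

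ID2, another HLH inhibitor, had 68.0 and 81.7 CPM in untreated cells. ID2 levels with RA were 48.4 and 29.6 CPM at day 5, then 51.7 and 58.6 (day 10) and 66.4 and 66.0 (day 21). ID2 levels with BMP2 were 83.9 and 104 CPM at day 5, then 109 and 76.1 (day 10) and 61.2 and 49.6 (day 21). It was 1.92-fold lower at RA day 5 than in untreated cells (adjusted p = 0.0497). This call was at the threshold: it was lost in 11 of 14 fits that left out 1 library, all but those without RA day 5 replicate 1 or either BMP2 day 10 library, with adjusted p up to 0.27. It was also lost with only the 4 libraries compared (adjusted p = 0.053) and by limma on log2(RPKM + 1) (adjusted p = 0.067).

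ID4, known from neural progenitors, had 38.7 and 45.9 CPM in untreated cells and between 28.7 and 76.9 CPM in treated ones. It passed the test in 0 of the 6 comparisons with untreated cells, with log2 fold changes from -0.12 to 0.75. Its highest library, at BMP2 day 21 with 76.9 CPM, had a replicate at 32.1 CPM. Per kilobase of exon, ID1 was the highest ID gene in untreated cells (79.8 CPM per kb, 45.4% of the family) and ID3 at RA day 21 (197 CPM per kb, 57.6%). At BMP2 day 21 the 4 lay between 21.5 and 25.6 CPM per kb. Such values depend on the length used. In the authors' RPKM, which took the whole gene span for these 4, ID1, ID2, ID3 and ID4 stood at 19.9, 9.15, 22.7 and 15.3 at BMP2 day 21. The antisense gene ID2-AS1 covers 53.8% of the span of ID2, and AL022068.1 covers 51.4% of ID4. Neither is a row of the count table, and the sources used here do not give whether the counting used strand. Their reads may be among those of ID2 and ID4.

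MSX1 had the largest fold change of the 10 genes in 5 of the 6 comparisons with untreated cells (at RA day 5 it was DLX5), and MSX1 and MSX2 stood at near equal levels in BMP2-treated cells. Their 250 bases before the start are shown because both rose together under BMP2 from different resting levels, MSX1 at chr4:4859415-4859664 and MSX2 at chr5:174724332-174724581, both on the plus strand of GRCh38.p14 (RefSeq), with capitals as above.
MSX1: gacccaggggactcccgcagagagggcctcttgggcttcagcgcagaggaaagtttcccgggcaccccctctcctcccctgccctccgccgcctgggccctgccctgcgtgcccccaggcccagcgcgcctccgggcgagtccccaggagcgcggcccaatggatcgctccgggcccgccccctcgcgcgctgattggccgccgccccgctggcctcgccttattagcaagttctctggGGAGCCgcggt
MSX2: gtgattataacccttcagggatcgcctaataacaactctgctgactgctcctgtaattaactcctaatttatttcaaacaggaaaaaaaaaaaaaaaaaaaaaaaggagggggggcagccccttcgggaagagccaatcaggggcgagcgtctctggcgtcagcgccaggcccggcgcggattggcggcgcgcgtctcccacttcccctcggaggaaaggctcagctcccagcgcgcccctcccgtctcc

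MSX1 had 0.284 and 0.348 CPM in untreated cells. MSX1 levels with RA were 39.1 and 4.89 CPM at day 5, then 17.8 and 40.1 (day 10) and 44.8 and 37.1 (day 21). MSX1 levels with BMP2 were 116 and 234 CPM at day 5, then 225 and 58.9 (day 10) and 44.8 and 40.1 (day 21). All 12 treated libraries lay above both untreated ones. The rise was 546-fold at BMP2 day 5 (9.09 ± 1.22 SE, adjusted p = 0.00086), 442-fold at BMP2 day 10 and 132-fold at BMP2 day 21 (adjusted p = 0.00075 and 0.00082). With RA it was 68.4-fold at day 5, 90.3-fold at day 10 and 128-fold at day 21 (adjusted p = 0.0093, 0.0034 and 0.00098). The RA day 5 call was lost without untreated replicate 1 (adjusted p = 0.082) or replicate 2 (0.1), and the other 5 held with each library left out. The fold at RA day 5 rested on replicate 1: without it the log2 fold change was 3.93.

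MSX2 was already expressed in untreated cells, at 9.25 and 16.4 CPM. MSX2 levels with RA were 55.6 and 10.1 CPM at day 5, then 22.5 and 14.6 (day 10) and 23.5 and 18.9 (day 21). MSX2 levels with BMP2 were 159 and 214 CPM at day 5, then 242 and 71.9 (day 10) and 53.8 and 43.7 (day 21). The 6 BMP2 libraries all lay above both untreated libraries, whereas the RA day 5 and day 10 libraries overlapped them. MSX2 rose 14.5-fold at BMP2 day 5 (3.86 ± 0.79 SE, adjusted p = 0.006) and 12.2-fold at BMP2 day 10 (adjusted p = 0.006), and both calls missed the threshold without untreated replicate 1 (adjusted p = 0.055 and 0.056). The day 10 call also missed it with only the 4 libraries compared (0.058), and without BMP2 day 10 replicate 1 its log2 fold change fell from 3.61 to 2.48. At BMP2 day 21 the log2 fold change was 1.92 ± 0.73 (adjusted p = 0.052), and it passed in 8 alternatives, among them DESeq2 (adjusted p = 0.014). With RA it was 1.35 ± 0.72, 0.53 ± 0.71 and 0.72 ± 0.71 at days 5, 10 and 21, with adjusted p of 0.28 or more. Without RA day 5 replicate 1, the first of these was -0.34.

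The proportion of MSX1 to MSX2 had a wider range among the RA libraries than among the BMP2 libraries. MSX1 had 0.0212 and 0.0307 of the CPM of MSX2 in the untreated libraries. The ratio was 0.482 and 0.702 at RA day 5, 0.792 and 2.76 at RA day 10, and 1.9 and 1.96 at RA day 21. In the 6 BMP2 libraries it lay between 0.732 and 1.09, and a difference between treatments was not tested. Per kilobase of exon, MSX1 made up 2.56% of the pair in untreated cells and 67.4% at RA day 21. In the BMP2 groups it made up between 48.2% and 50.2%. In the authors' RPKM, which used other lengths, MSX1 and MSX2 stood at 40.2 and 28.5 at BMP2 day 5.

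Of the DLX genes, DLX2 and DLX6 are shown with the 250 bases before their starts, 1 from each facing pair, because their pairs followed different courses: DLX2 at chr2:172102901-172103150 on the minus strand and DLX6 at chr7:97005303-97005552 on the plus strand of GRCh38.p14 (RefSeq), with capitals as above.
DLX2: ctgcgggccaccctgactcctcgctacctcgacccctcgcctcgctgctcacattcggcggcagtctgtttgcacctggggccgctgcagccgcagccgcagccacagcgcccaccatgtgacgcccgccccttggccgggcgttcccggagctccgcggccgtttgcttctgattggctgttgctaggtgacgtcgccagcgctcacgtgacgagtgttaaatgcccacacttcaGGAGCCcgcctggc
DLX6: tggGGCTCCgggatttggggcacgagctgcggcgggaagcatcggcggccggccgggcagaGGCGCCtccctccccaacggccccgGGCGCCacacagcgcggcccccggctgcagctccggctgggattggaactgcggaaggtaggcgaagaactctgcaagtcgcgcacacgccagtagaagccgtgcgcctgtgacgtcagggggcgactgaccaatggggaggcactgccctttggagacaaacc

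DLX1, a forebrain and arch homeodomain factor, had 0.162 and 0.0835 CPM in untreated cells. DLX1 levels with RA were 0.732 and 0.321 CPM at day 5, then 0.685 and 0.924 (day 10) and 2.60 and 6.94 (day 21). DLX1 levels with BMP2 were 5.61 and 10.3 CPM at day 5, then 9.30 and 3.69 (day 10) and 2.50 and 3.02 (day 21). The highest RA levels were those of day 21 and the highest BMP2 levels those of the 2 earlier days, and at day 21 the libraries of both treatments overlapped. DLX1 rose 65.4-fold at BMP2 day 5 (6.03 ± 0.80 SE, adjusted p = 0.00082), 53.3-fold at BMP2 day 10, 22.7-fold at BMP2 day 21 and 39.1-fold at RA day 21, and these 4 calls held with each library left out (adjusted p up to 0.016). The 6.62-fold rise at RA day 10 (adjusted p = 0.024) was lost without untreated replicate 1 (0.068) or 2 (0.17), or RA day 10 replicate 1 (0.061) or 2 (0.082).

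DLX2, which shares the locus and many tissues with DLX1, had 0 and 36 counts in the untreated libraries (0 and 0.501 CPM). DLX2 levels with RA were 12.7 and 2.04 CPM at day 5, then 4.38 and 7.78 (day 10) and 13 and 22.0 (day 21). DLX2 levels with BMP2 were 31.5 and 41.5 CPM at day 5, then 44.3 and 20.6 (day 10) and 16.2 and 7.60 (day 21). All 12 treated libraries lay above both untreated ones. The fold was 135 at BMP2 day 5 (7.07 ± 1.30 SE, adjusted p = 0.0036) and 64.6 at RA day 21 (6.01 ± 1.24 SE, adjusted p = 0.0035). These folds rest on an untreated pair in which only replicate 2 had counts. The 27.1-fold rise at RA day 5 (adjusted p = 0.038) was lost in 10 of 14 fits that left out 1 library, with adjusted p up to 0.24 without RA day 5 replicate 1, and was kept without untreated replicate 2, RA day 5 replicate 2 or either BMP2 day 10 library. The 22.5-fold rise at RA day 10 was lost without untreated replicate 1 (0.076) or RA day 10 replicate 2 (0.068).

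DLX5, known for bone and the first pharyngeal arch, had 0.324 and 0.445 CPM in untreated cells. DLX5 levels with RA were 35.8 and 20.2 CPM at day 5, then 13.1 and 5.31 (day 10) and 4.65 and 3.66 (day 21). DLX5 levels with BMP2 were 35.6 and 87.5 CPM at day 5, then 91.7 and 5.88 (day 10) and 2.55 and 4.09 (day 21). The RA and BMP2 day 5 libraries overlapped, and all 4 libraries of day 21 were low but above the untreated ones. DLX5 rose 157-fold at BMP2 day 5 (7.30 ± 1.25 SE, adjusted p = 0.0026) and 125-fold at BMP2 day 10 (adjusted p = 0.0024), calls that held with each library left out. Without BMP2 day 10 replicate 1 the second log2 fold change fell from 6.96 to 3.91. With only the 4 libraries compared, the BMP2 day 10 calls of DLX5 and DLX2 were lost (edgeR, adjusted p = 0.067 and 0.07). DLX5 also rose 71.6-fold at RA day 5, 23.5-fold at RA day 10 and 10.6-fold at RA day 21 (adjusted p = 0.014, 0.017 and 0.028). At BMP2 day 21 it rose 8.49-fold (adjusted p = 0.039).

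Those 4 smaller DLX5 calls were less stable. All were lost without untreated replicate 1 (adjusted p = 0.1, 0.11, 0.13 and 0.16, in the same order) or replicate 2 (0.12, 0.11, 0.12 and 0.14). The RA day 5 call was lost without its replicate 1 (0.057), the RA day 10 call without its replicate 1 (0.082), and the RA day 21 call without either of its libraries (0.083 and 0.062). The BMP2 day 21 call was lost without either of its libraries (0.061 and 0.13) or either RA day 21 library (0.054 each).

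DLX6, the partner of DLX5, had 0.365 and 0.751 CPM in untreated cells. DLX6 levels with RA were 4.27 and 2.47 CPM at day 5, then 1.62 and 0.298 (day 10) and 2.39 and 1.47 (day 21). DLX6 levels with BMP2 were 4.59 and 14.7 CPM at day 5, then 14.8 and 0.782 (day 10) and 0.411 and 0.525 (day 21), where its libraries overlapped the untreated ones. DLX6 rose 17.0-fold at BMP2 day 5 (4.09 ± 1.26 SE, adjusted p = 0.035) and 13.8-fold at BMP2 day 10 (adjusted p = 0.038), and the RA comparisons passed at 0 of 3 days (adjusted p = 0.22, 0.67 and 0.24). The day 10 call rested on 1 library: without BMP2 day 10 replicate 1 the log2 fold change was 0.47 (adjusted p = 0.74). It was lost in 8 of 14 fits that left out 1 library. The others without which it was lost were both untreated libraries (0.18 and 0.12), RA day 5 replicate 1 (0.051), both RA day 21 libraries (0.052 each) and both BMP2 day 21 libraries (0.053 and 0.051). The day 5 call was lost in 6, those without either untreated library (0.18 and 0.12), either RA day 21 library (0.051 each), BMP2 day 5 replicate 2 (0.15) or BMP2 day 21 replicate 1 (0.05).

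The antisense gene DLX6-AS1 covers 100% of the span of DLX6 on the opposite strand and has its own row in the count table. It had 8.14 and 25.5 CPM at BMP2 day 5, 23.9 and 1.70 at BMP2 day 10, and 0.203 and 1.34 in untreated cells. Reads of DLX6 and DLX6-AS1 cannot be separated without strand, so the DLX6 values are uncertain. The ratio of DLX5 to DLX6 CPM was 0.593 and 0.889 in untreated cells and between 5.97 and 7.80 in all 6 BMP2 libraries. The ratio of DLX2 to DLX1 lay between 2.51 and 6.48 in those 6. Per kilobase of exon, DLX5 made up 67.1% of the 4 DLX genes at BMP2 day 5 and 81.7% at RA day 5. DLX2 made up 59.0% at BMP2 day 21 and 58.1% at RA day 21. In the authors' RPKM, DLX5 and DLX2 stood at 12.9 and 10.2 at BMP2 day 5, against 35.2 and 12.3 CPM per kb of exon.

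The 2 BMP2 day 10 libraries were far apart over these genes, as the plot of the BMP2 libraries shows. Over the 10 genes, the root mean square difference in log2 CPM was 2.12 between them. Replicate 1 was 0.1 from BMP2 day 5 replicate 2, with MSX1 at 225 and 234 CPM, DLX5 at 91.7 and 87.5 CPM and DLX6 at 14.8 and 14.7 CPM. By comparison, the replicates of the other groups were 0.58 to 1.67 apart. Over all genes these 2 libraries correlated at 0.981, and the BMP2 day 5 pair at 0.971. Whether the day label is right was not tested, and the labels were kept. BMP2 day 10 replicate 2 was nearest to the day 21 libraries, at 0.89 and 0.91 from those of RA and 0.91 and 0.98 from those of BMP2. BMP2 day 10 means average these 2 unlike libraries. Without replicate 1, the log2 fold change of BMP2 day 10 vs untreated day 0 fell from 8.79 to 7.51 for MSX1 and from 5.73 to 4.92 for DLX1, and both stayed called. For DLX2 (6.91) it ranged from 6.01 without untreated replicate 1 to 13.85 without untreated replicate 2, where the untreated library left has 0 counts and the value is no bound. Marker sums moved with them: trophoblast and amnion markers (GATA3, KRT7, CGA, TFAP2C, GABRP and VTCN1) summed to 956 CPM in replicate 1 and 342 CPM in replicate 2, and embryonal carcinoma markers to 786 and 16.6 CPM. VTCN1 was at 189 and 0.134 CPM and GABRP at 577 and 5.25 CPM, while KRT7 was at 37.5 and 309 CPM.

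**Figure D3:**
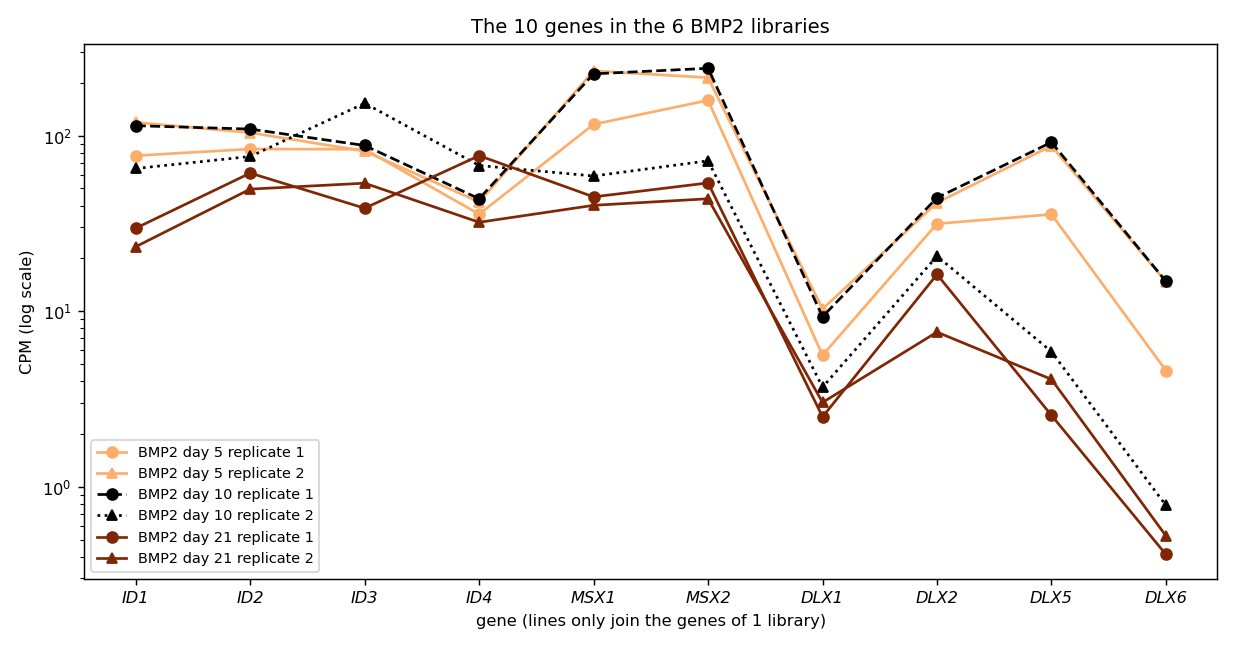
CPM of the 10 genes (log axis) in the 6 BMP2 libraries, with a line joining the genes of each library. BMP2 day 10 replicate 1 (dashed) lies on BMP2 day 5 replicate 2, and BMP2 day 10 replicate 2 (dotted) lies near the day 21 libraries for MSX1, DLX1, DLX5 and DLX6 but above them for ID3 (153 against 38.6 and 53.6 CPM).

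In the BMP2 day 5 libraries the trophoblast and amnion sum was 346 and 875 CPM, in the same order as DLX5 (35.6 and 87.5 CPM) and DLX6 (4.59 and 14.7 CPM), and 3 of its 6 genes rose against untreated cells (up to 56.2 CPM). At BMP2 day 21 it was 62.4 and 147 CPM. GATA3 is in this marker list and in the list of BMP targets below. CGA was at 0 in BMP2 day 5 replicate 1 and BMP2 day 21 replicate 1, and at 0.402 CPM or less in the other BMP2 libraries. Smooth muscle markers (ACTA2, TAGLN, CNN1, MYH11 and MYOCD) summed to 1280 and 559 CPM at BMP2 day 5, and all 5 rose. Cardiac markers (TNNT2, ACTC1, NKX2-5, MYH6 and MYL7) summed to 2000 and 368 CPM there against 29.1 and 59.2 CPM in untreated cells, and 4 of 5 rose. Most of that sum was ACTC1 (1760 and 272 CPM). Among all genes, 15.9% rose at BMP2 day 5 and 25% at BMP2 day 21. Endoderm markers (SOX17, FOXA2, AFP and GATA4) summed to 123 and 125 CPM at BMP2 day 21 against 0.629 and 1.47 CPM, and all 4 rose, GATA4 alone having 121 and 122 CPM. SOX17 and FOXA2 were at 0 in both untreated libraries, and FOXA2 also in both BMP2 day 5 libraries. Within RA day 5, replicate 1 was higher in all 10 genes, and its smooth muscle sum was 258 CPM against 40.4 CPM in replicate 2. Neuron markers (MAP2, DCX, ELAVL3, ELAVL4, STMN2, SNAP25 and SYT1) summed to 91.7 and 62.4 CPM in untreated cells. With RA they summed to 344 and 372 CPM at day 10 (4 of 7 rose) and 199 and 232 CPM at day 21 (2 of 7 rose). Among all genes, 12.9% rose at RA day 10 and 23.4% at RA day 21. At BMP2 day 21 the neuron markers summed to 158 and 163 CPM. There 2 of 7 rose and 2 fell, where 25% of all genes rose and 22.1% fell. Skeletal muscle markers (MYOD1, MYOG, DES, CKM, ACTA1 and MYH3) stayed at a sum of 21.8 CPM or less in every library. The part of these cell types in the values of the 10 genes was not tested.

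Set directly against RA at the same day, BMP2 went with more ID2 and DLX1 at day 5, more MSX2 and DLX1 at day 10, and less ID1 and ID3 at day 21. At day 5, ID2 and DLX1 were higher with BMP2, 2 of the 10 genes, with 0 lower, where 6.25% of all genes were called higher and 5.97% lower. At day 10, MSX2 and DLX1 were higher, with 0 lower, against 5.73% and 5.11% of all genes. At day 21, ID1 and ID3 were lower, with 0 higher, against 6.07% higher and 5.99% lower of all genes. On log2(RPKM + 1), 35.5%, 24% and 26.1% of called genes were higher at days 5, 10 and 21, against 51.2%, 52.8% and 50.3% in the edgeR fit.

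**Figure D4:**
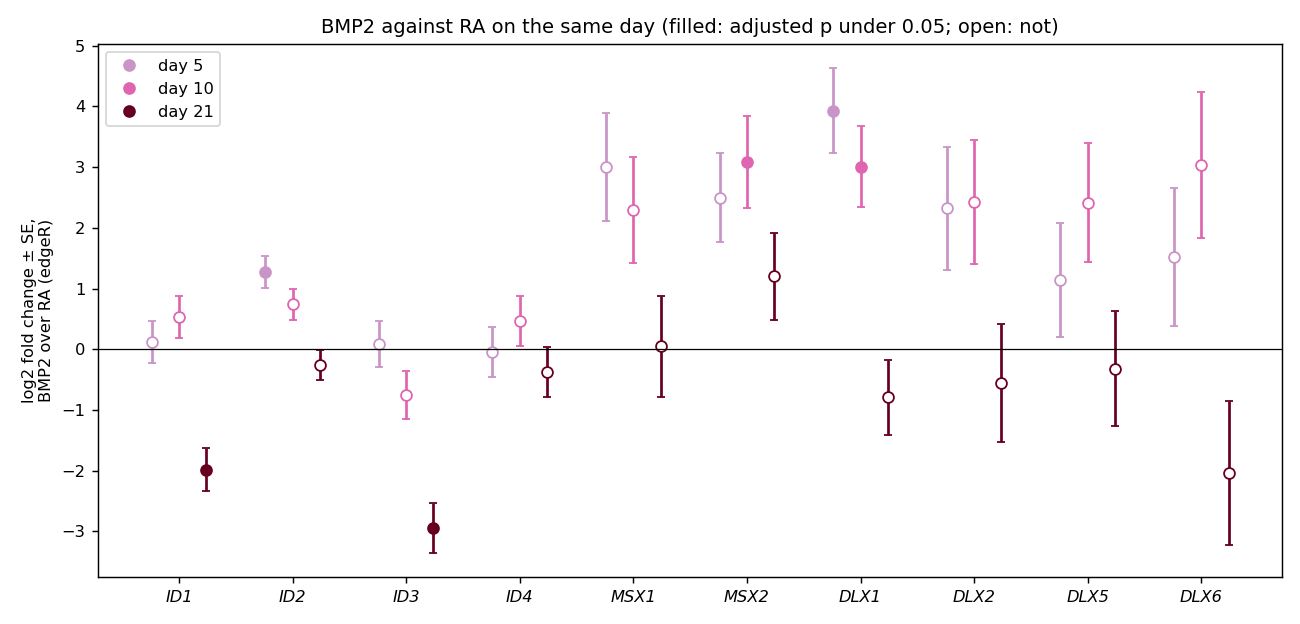
Log2 fold change ± SE (edgeR) of BMP2 over RA at days 5, 10 and 21 for the 10 genes; points above 0 are higher with BMP2, and filled points passed an adjusted p under 0.05. Filled points are ID2 and DLX1 at day 5, MSX2 and DLX1 at day 10, and ID1 and ID3 at day 21.

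DLX1 was 15.2-fold higher with BMP2 than with RA at day 5 (3.93 ± 0.70 SE, adjusted p = 0.0079) and 8.04-fold at day 10 (3.01 ± 0.67 SE, adjusted p = 0.022). The first call was lost without RA day 5 replicate 2 (adjusted p = 0.087), the second without RA day 10 replicate 1 (0.13) or 2 (0.1) and with only the 4 libraries compared (0.22). MSX2 was 8.49-fold higher at day 10 (3.09 ± 0.76 SE, adjusted p = 0.031). This call was lost without RA day 10 replicate 1 (0.12) or 2 (0.17), either RA day 21 library (0.051 each) or BMP2 day 10 replicate 1 (0.073, log2 fold change 1.96), and with only the 4 libraries compared (0.22). At day 5 MSX1 and MSX2 just missed the threshold, at 3 ± 0.89 (adjusted p = 0.055) and 2.50 ± 0.74 (0.054), with libraries that did not overlap. Among all genes, 60.2% had libraries that did not overlap in this comparison. Without RA day 5 replicate 1 the values were 5.16 (0.016) and 4.20 (0.016).

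ID2 was 2.42-fold higher with BMP2 at day 5 (1.27 ± 0.26 SE, adjusted p = 0.013), a call lost without RA day 5 replicate 2 (0.11) or BMP2 day 5 replicate 2 (0.071). DLX2, DLX5 and DLX6 had log2 differences from 1.14 to 2.32 at day 5 and from 2.41 to 3.03 at day 10, with adjusted p of 0.13 or more. The day 10 values of DLX5 and DLX6 came from 1 library, since without BMP2 day 10 replicate 1 they were -0.64 and -0.28. At day 21, ID3 was 7.68-fold lower with BMP2 than with RA (-2.94 ± 0.41 SE, adjusted p = 0.0032) and held with each library left out (up to 0.032). ID1 was 3.95-fold lower (-1.98 ± 0.36 SE, adjusted p = 0.0096), a call lost without RA day 21 replicate 1 (0.071) or 2 (0.058) or BMP2 day 21 replicate 2 (0.083). MSX1 differed by 0.05 ± 0.83 and DLX2 by -0.55 ± 0.97 at day 21, and SEs of that size would leave a difference of 1 log2 unit undetected.

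From day 5 to day 21 3 genes were called higher with RA and 3 others lower with BMP2. With RA, ID2, ID3 and DLX1 were higher at day 21 than at day 5 and 0 were lower, where 13.9% of all genes were called higher and 14.8% lower. With BMP2, ID1, DLX5 and DLX6 were lower and 0 were higher, where 7.77% of all genes were called higher and 7.75% lower. In RA, ID3 rose 4.57-fold (2.19 ± 0.40 SE, adjusted p = 0.0043) and held with each library left out (up to 0.031). DLX1 rose 9.11-fold (adjusted p = 0.008), a call lost without RA day 5 replicate 2 (0.071) or RA day 21 replicate 2 (0.07). ID2 rose 1.70-fold (adjusted p = 0.047), which was lost in 11 of 14 fits that left out 1 library (up to 0.31), all but those without RA day 5 replicate 1 or either BMP2 day 10 library.

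DLX5 in RA had a log2 change of -2.75 ± 0.99 (adjusted p = 0.062) with libraries that did not overlap, as in 77.1% of all genes. This change passed by DESeq2 (adjusted p = 0.0066), without the filter (0.027), with only the 4 libraries compared (0.003), without BMP2 day 10 replicate 1 (0.0033) or 2 (0.003), and without both (0.0031). In BMP2, DLX5 was 18.5-fold lower at day 21 (-4.21 ± 1.06 SE, adjusted p = 0.03) and DLX6 20.5-fold lower (-4.36 ± 1.29 SE, adjusted p = 0.047). The DLX5 call was lost without either library of BMP2 day 5 (0.097 and 0.1) or of BMP2 day 21 (0.13 and 0.14), and stood at the threshold without either of RA day 21 (0.05 each). The DLX6 call was lost in 10 of 14 fits, all but those without an RA day 10 or BMP2 day 10 library, with adjusted p up to 0.2. ID1 was 3.70-fold lower (-1.89 ± 0.36 SE, adjusted p = 0.015), lost without either library of BMP2 day 5 (0.092 and 0.059) or of BMP2 day 21 (0.05 and 0.1). MSX1, MSX2, DLX1 and DLX2 had log2 changes from -2.05 to -1.53 with adjusted p from 0.093 to 0.28, and in 9 of the 10 genes the day 5 and day 21 libraries did not overlap, as in 61.7% of all genes.

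The difference between these changes was tested in the same fit, in a contrast added after the data were seen. The change from day 5 to day 21 was lower with BMP2 than with RA for ID3 (-3.03 ± 0.56 SE, adjusted p = 0.03) and DLX1 (-4.72 ± 0.93 SE, adjusted p = 0.038), 2 of the 10 genes with 0 higher, where 0.705% of all genes were lower and 0.935% higher. ID1 and ID2 had -2.10 ± 0.50 and -1.53 ± 0.36, just short of the threshold (adjusted p = 0.067 and 0.065). The other 6 had adjusted p from 0.22 to 0.81. With 1 library left out, the ID3 call was lost in 9 of 14 fits (all but those without RA day 5 replicate 1 or a library of day 10), with adjusted p up to 0.11. The DLX1 call was lost in 12 (all but those without a BMP2 day 10 library), with adjusted p up to 0.17.

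Other genes of the pathway were counted from lists made by known function, with earlier results of these data known. For all lists below, 15.9%, 19.8% and 25% of all genes rose at BMP2 days 5, 10 and 21, and 13.4%, 16.4% and 22.1% fell. With RA, 5.59%, 12.9% and 23.4% of all genes rose at days 5, 10 and 21, and 2.72%, 11.1% and 21.1% fell. Of 12 other genes known as BMP or SMAD1/5 targets, 11 rose at BMP2 day 5, 11 at day 10 and 9 at day 21, with median log2 fold changes of 5.18, 5.03 and 4.11. With RA, 5, 8 and 8 of these 12 genes rose (medians 3.21, 2.75 and 2.23), and 0 fell in any of the 6 comparisons. The medians of all genes lay between 0 and 0.10. ISL1, a factor of heart and motor neuron progenitors, rose from 0.122 and 0.195 CPM to 197 and 218 CPM at BMP2 day 5 (log2 fold change 10.3 ± 1.23 SE, adjusted p = 0.00052). HAND1, of extraembryonic and heart mesoderm, rose from 0.203 and 0.793 to 484 and 566 CPM there (9.97 ± 1.64, adjusted p = 0.0021), and TBX3 from 1.05 and 1.98 to 171 and 358 CPM (7.43 ± 1.18, adjusted p = 0.0018). HAND2 reached 84.8 and 63.0 CPM at BMP2 day 21 (8.32 ± 1.80, adjusted p = 0.004). ATOH8 in this list rose with RA (5.44 ± 0.70 at day 5) and did not pass the test with BMP2 (1.13 ± 0.61 at day 5).

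Of 12 BMP feedback and inhibitor genes, 7, 9 and 9 rose at BMP2 days 5, 10 and 21 with 0 lower (medians 2.43, 2.77 and 1.92), and 3, 3 and 2 rose with RA, where 0, 1 and 2 fell (medians 0.14, 0.03 and 0.04). SMAD6, the inhibitory SMAD, rose in all 6 comparisons (log2 fold changes 1.83 to 3), and SMAD7 in 0 of 6. CHRD, encoding the BMP antagonist chordin, rose from 1.26 and 0.278 to 42.5 and 62.3 CPM at BMP2 day 5 (6.12 ± 1.15, adjusted p = 0.004). BMPER, an extracellular BMP modulator, rose to 33.0 and 21.8 CPM at RA day 5 (4.71 ± 0.73, adjusted p = 0.0045). The antagonist gene GREM1 rose at BMP2 day 10 (4.23 ± 1.32, adjusted p = 0.03), where its 2 libraries had 12.9 and 327 CPM.

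Of 14 tested BMP receptors and SMADs, 2 rose and 2 fell at BMP2 day 5 (median 0.20). At BMP2 day 21, 3 rose and 2 fell (median -0.18), against 25% and 22.1% of all genes. With RA, 1 of the list rose and 1 fell at day 5, and 3 rose and 3 fell at day 21 (medians 0.12 and -0.33). SMAD1, SMAD5 and SMAD4, the core of the cascade, passed in 0 of 6 comparisons (log2 fold changes -0.34 to 0.46). SMAD9 rose to 51.1 and 47.4 CPM at BMP2 day 5 from 4.42 and 3.99 (3.55 ± 0.42, adjusted p = 0.00045), and BMPR2, the type II receptor, rose at BMP2 day 21 (2.50 ± 0.36, adjusted p = 0.00044). ACVR2B fell at BMP2 day 21 (-2.92 ± 0.58, adjusted p = 0.0026) and the co-receptor RGMA at BMP2 day 10 (-2.54 ± 0.32, adjusted p = 0.00056).

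Among the E proteins that ID proteins bind, TCF3 had 247 and 208 CPM in untreated cells and was lower at BMP2 day 21 (127 and 156 CPM, -0.68 ± 0.19, adjusted p = 0.015). TCF4 was higher there (153 and 134 against 65.5 and 42.6 CPM, 1.41 ± 0.24, adjusted p = 0.0011), and TCF12 passed in 0 of 6 comparisons. Of 8 tested proneural and myogenic bHLH genes, 2 rose and 1 fell at RA day 10, and 1 rose and 2 fell at each BMP2 day. OLIG2 fell at RA day 21 (-4.71 ± 0.69, adjusted p = 0.00057), and TWIST1, a mesenchymal bHLH factor, rose there (3.55 ± 0.80, adjusted p = 0.0055). The list's median was 3.18 at RA day 10 and -3.31 at BMP2 day 5, or 3.17 and -1.31 when a group without counts was set to a floor of 3 counts over the group.

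Genes that work beside DLX factors in forebrain interneurons moved both ways. Of 7 tested, 1 rose and 1 fell at RA day 5, 0 and 4 at RA day 21, 2 and 3 at BMP2 day 5, and 3 and 3 at BMP2 day 21, with medians of -0.31, -1.94, 0.21 and 0.77. GAD2, a GABA-synthesising enzyme, had 1.52 and 1.73 CPM in untreated cells and 0 counts in both BMP2 day 5 libraries, at least 62.9-fold lower. SP8 was at 25.1 and 20.9 CPM in untreated cells and at 0 and 0.672 CPM at BMP2 day 21 (-6.09 ± 1.38, adjusted p = 0.0052). SP9 went the other way, from 0 counts in both untreated libraries to 2.16 and 1.76 CPM at BMP2 day 21, at least 79.1-fold higher. LHX8 fell from 0.324 and 0.487 to 0.019 and 0.0149 CPM at RA day 10 (adjusted p = 0.023). DLX3 and DLX4 passed in 0 of 6 comparisons, and DLX6-AS1 rose at BMP2 days 5 and 10 (4.42 ± 1.31 and 4.03 ± 1.29, adjusted p = 0.03 and 0.034).

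MSX and DLX genes are best known from neural crest and limb or facial mesenchyme. Of 16 tested genes of these tissues, 6 rose and 2 fell at BMP2 day 5 (median 2.20). At BMP2 day 21, 3 rose and 2 fell (median 0.17), against 25% and 22.1% of all genes. With RA, 4 rose and 1 fell at day 5, and 6 rose and 2 fell at day 21 (medians 1.20 and 1.07). PRRX1, a limb and facial mesenchyme factor, had 0.568 and 0.724 CPM in untreated cells, 149 and 462 CPM at BMP2 day 5 (8.87 ± 1.24, adjusted p = 0.001), and 161 and 137 CPM at RA day 21. PAX7, a crest border and muscle progenitor factor, had 0 and 0.0278 CPM in untreated cells and 4.38 and 24 CPM at RA day 10 (adjusted p = 0.0063), and TBX2 reached 40.4 and 7.27 CPM there (7.94 ± 1.29, adjusted p = 0.0028). FOXD3, a pluripotency and crest factor, was at 12.4 and 11.7 CPM in untreated cells and at 0 counts in both BMP2 day 21 libraries, at least 387-fold lower.

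The genes with the most similar pattern over the 7 group means, by root mean square difference in centred log2 CPM, were as follows. MSX1 was closest to ERP27 (0.36) and PRRX1 (0.45), and MSX2 to the gene BMP2 itself (0.30) and CLIC5 (0.35). DLX1 was closest to KCNJ2 (0.37) and AFAP1L2 (0.39), and DLX2 to TLX1 (0.45) and IGFBP3 (0.48). DLX5 was closest to PLCXD3 (0.80) and GATA3 (0.85), and DLX6 to EDDM3B (0.52) and its antisense DLX6-AS1 (0.59). The root mean square of the gene's own centred pattern was 2.21 for DLX5 and 1.43 for DLX6. EDDM3B was at 0.94 CPM or less in every library. Endogenous BMP2 transcripts had 3.41 and 2.70 CPM in untreated cells, 27.4 and 37.6 at BMP2 day 5, 39.8 and 11 at BMP2 day 10, and 9.15 and 6.53 at BMP2 day 21. Within each BMP2 pair the higher library was the same as for MSX2, and within the untreated pair it was the other one. KCNJ2 had 22.0 and 47.0 CPM at BMP2 day 5 and 11.8 and 11.2 CPM at RA day 21.

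The patterns of the ID genes had a smaller range over the groups. ID1 was closest to LEAP2 and HNRNPDLP4 (0.19 each), ID2 to SH3BP4 and RAB4B (0.18 each), ID3 to RPL7P57 (0.27) and C14orf180 (0.30), and ID4 to LENG1 (0.10) and CDPF1 (0.11). HNRNPDLP4, RPL7P57 and C14orf180 were at 0.458 CPM or less in every library. These distances rest on 7 group means that share libraries, scaling and the BMP2 day 10 averages.

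Short sequence words were searched on both strands in 300 bases around the start (250 before to 50 after) of the 9 genes with an entry in the RefSeq promoter table, on GRCh38.p14, and in all 35116 promoters of that table. GGAGCC was in 7 of the 9 (ID1, ID3, ID4, MSX1, DLX1, DLX2 and DLX6) and in 36% of all promoters. GGCGCC, its own reverse complement, was in 1 of the 9 (DLX6, at bases -189 and -164 from the start) and in 19.2% of all. The retinoid receptor half-site AGGTCA was in 2 of the 9 (ID3 at 8 and DLX1 at -44) and in 13.8% of all. The E-box CAGNTG was in ID2, ID4 and DLX2 (49.9% of all), TAATTA in MSX2 (4.84% of all), and TATAAA in ID1 and ID4 (11.5% of all). The 2 TATAAA matches of ID1 overlap each other. GC content ran from 57.0% (MSX2) to 76.3% (ID4) against a median of 58.7%. A match is a description of these windows and not a bound site.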

How the data were processed

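RNA-seq of 14 libraries of NT2 cells, 2 in each of 7 groups taken from the sample titles, was analysed from the deposited table of read counts per gene and the deposited RPKM values. The authors made the counts with STAR and featureCounts on hg19 and list DESeq2, per the submitters' processing notes, without versions. The authors' RPKM values were deposited per gene. For 89.0% of 5814 well-counted genes the length they imply was within 1% of the whole gene span. Between 66.0% and 73.5% of counts from 1 to 19 were even, and the cause was not tested. The sources used here do not give whether strand was used or whether reads in introns were counted.

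The 10 genes and the gene lists were chosen with earlier results of these data known. Symbols were matched for 25214 of 25952 identifiers. Counts were tested with edgeR 4.0.16 (R 4.3.3; TMM scaling, genes kept by filterByExpr at a count minimum of 10, quasi-likelihood test over all 14 libraries with group means, Benjamini-Hochberg adjustment per comparison over 19142 genes, adjusted p under 0.05), giving 7 residual degrees of freedom and a common BCV of 0.368. The script was tested on simulated data. Fold sizes and SEs are from this fit. Alternatives were RLE factors, no filter, DESeq2 1.42.0, the replicate number as a block, only the libraries compared, limma 3.58.1 on log2(RPKM + 1) and log2(RPKM + 0.1) for genes at 0.5 RPKM or more in 2 libraries, both BMP2 day 10 libraries left out, and each library left out. The contrast of the changes from day 5 to day 21 was added after the data were seen.

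All 10 genes are named. Of each pathway list, at most the 4 called genes with the largest absolute log2 fold change against untreated cells are named, and for each of the 10 genes the 2 genes of most similar pattern (log2 CPM with a prior count of 2). Some genes that this rule names are not reported here. ATOH8, SMAD6, SMAD7, SMAD1, SMAD5, SMAD4, TCF12, DLX3 and DLX4 were named after their values were seen. The RA day 21 libraries are numbered differently in titles and descriptions, and titles were used. Sequences are RefSeq promoters on GRCh38.p14, found for 9 of the 10 genes, all but DLX5. Antisense overlaps are from GENCODE release 29.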

Additional observations from a re-analysis of the deposited data

Results flagged for a closer look

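The change from day 5 to day 21 differed between BMP2 and RA for 2 of the 10 genes, both lower. Over all genes, 0.705% were lower and 0.935% higher. The test was edgeR's quasi-likelihood test of the difference itself with Benjamini-Hochberg adjustment, in a contrast added after the data were seen. For ID3 the log2 difference of the changes, BMP2 minus RA, was -3.03 ± 0.56 SE (adjusted p = 0.03). ID3 went from 107 and 48.3 to 370 and 338 CPM with RA, and from 83.7 and 81.6 to 38.6 and 53.6 CPM with BMP2. For DLX1 it was -4.72 ± 0.93 SE (adjusted p = 0.038), with 0.732 and 0.321 against 2.60 and 6.94 CPM with RA, and 5.61 and 10.3 against 2.50 and 3.02 CPM with BMP2. Leaving out 1 library ended the ID3 call in 9 of 14 fits and the DLX1 call in 12.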

How the results depend on the processing

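None of the 45 called fold changes reversed in 980 values under alternatives, and 170 of those values were no longer past the threshold. The cause of the changes below was not tested. Of the 10 genes, DESeq2 called 4 for BMP2 against RA at day 5 (2 in the edgeR fit), 6 at day 10 (2), 6 for BMP2 day 21 against day 5 (3), and 4 for the difference of changes (2). Over all genes it called 4146 (2338), 3930 (2075), 5165 (2972) and 1831 (314). Without the filter, 4 were called for BMP2 against RA at day 5 and 4 for the difference, with 2525 and 614 over all genes. With only the 4 libraries compared, 2 were called at BMP2 day 10 (6), 0 for BMP2 against RA at day 10, 4 at day 21 (2), and 7 for BMP2 day 21 against day 5. Over all genes these fits called 1019 (6947), 9 (2075), 5326 (2308) and 3042 (2972). On log2(RPKM + 1), 0 were called at RA day 5 (4), 2 at RA day 10 (5), 3 at BMP2 day 21 (5), and 5 and 1 for BMP2 against RA at days 5 and 10. Over all genes it called 1122 (1591), 3247 (4593), 6291 (9012), 1927 (2338) and 1853 (2075). The calls it ended at BMP2 day 21 were those of DLX1 and DLX5 (limma, adjusted p = 0.12 and 0.58). On log2(RPKM + 0.1), 4 and 1 of the 10 were called for BMP2 against RA at days 5 and 10, with 1826 and 1871 over all genes. By limma on log2(RPKM + 0.1), the median log2 difference of all genes for BMP2 against RA was -0.192 at day 10 and -0.200 at day 21, against 0.001 and -0.024 in the edgeR fit. Without both BMP2 day 10 libraries, 4 were called for BMP2 against RA at day 5, 5 for BMP2 day 21 against day 5, and 4 for the difference. Over all genes that fit called 4288 (2338), 5412 (2972) and 1541 (314). For the difference of changes, 57.0% of called genes were higher by edgeR and 36.3% on log2(RPKM + 1).

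The replicate block left 2 called at RA day 5 and 1 for the difference of changes (DLX1 had an adjusted p of 0.06). Over all genes it called 1285 in place of 1591 and 258 in place of 314. It also ended the DLX6 calls at BMP2 day 10 (0.074) and for BMP2 day 21 against day 5 (0.054), and that of ID2 for RA day 21 against day 5 (0.055). Same-numbered libraries did not deviate together (correlations from -0.34 to 0.15 over 21 pairs of groups, median 0), so the numbers were not taken as pairs.

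Leaving out 1 library at a time, the genes called ranged from 0 to 4 at RA day 5, 1 to 5 at RA day 10, 0 to 4 and 0 to 5 for BMP2 against RA at days 5 and 10, 1 to 2 at day 21, 1 to 4 for RA day 21 against day 5, 0 to 5 for the same in BMP2, and 0 to 4 for the difference.

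Values that changed sign had not passed the test. For ID1 at BMP2 day 5, the log2 fold change was 0.0122 with the replicate block, 0.0284 with only 4 libraries, and 0.0187 without both BMP2 day 10 libraries. ID3 at RA day 5 was at 0.0025 with only 4 libraries. ID4 at RA day 10 was at 0.13 and 0.14, and MSX1 for BMP2 against RA at day 21 at -0.15 and -0.16, on log2(RPKM + 1) and log2(RPKM + 0.1). With 1 library left out, the ranges at RA day 5 were -0.67 to 0.30 (ID1), -0.71 to 0.46 (ID3), -0.56 to 0.31 (ID4) and -0.34 to 2.14 (MSX2). At RA day 10 they were -0.31 to 0.19 (ID4) and -0.88 to 1.54 (DLX6). At BMP2 day 5 they were -0.32 to 0.27 (ID1), -0.044 to 0.18 (ID3) and -0.24 to 0.0025 (ID4), at BMP2 day 10 -0.60 to 0.21 (ID1), and at BMP2 day 21 -0.40 to 0.88 (ID4) and -0.68 to 0.35 (DLX6). For BMP2 against RA they were -0.28 to 0.66 (ID1), -0.36 to 0.77 (ID3) and -0.41 to 0.43 (ID4) at day 5, -0.64 to 3.32 (DLX5) and -0.28 to 4.72 (DLX6) at day 10, and -1.15 to 0.14 (ID4), -0.060 to 0.21 (MSX1) and -1.31 to 0.11 (DLX1) at day 21. For day 21 against day 5 they were -0.21 to 0.76 (ID1) and -1.41 to 1.07 (MSX2) in RA and -0.27 to 0.98 (ID4) in BMP2, and for the difference of changes -1.09 to 0.19 (ID4).

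With 2 libraries a group, a few fold of change in the low DLX genes can go undetected. In the simulated data, the fit recovered 0% of 1.5-fold, 8% of 2-fold, 62% of 4-fold and 84% of 8-fold changes. These were set at BMP2 day 5 against untreated cells, in 50 genes for each fold out of 18629 tested. The genes were drawn from all levels above a minimum, not from those of the low DLX genes. The real comparison called 5597 genes, which makes its adjusted threshold less strict, so these shares need not hold for it. A gene that was not called, ID genes included, is not shown to be unchanged.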
